A study of Homo sapiens with 6 samples.

Results

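hsa-miR-21-5p and hsa-miR-21-3p are the 2 mature strands cut from the miR-21 hairpin, and they were taken by name from a table of 1582 miRNAs in 6 small RNA libraries. Of these 1582 miRNAs, 506 had enough counts to be tested, and both arms were among them. The libraries came from MDA-MB-231, a human triple-negative breast cancer (TNBC) cell line, 3 from control cells and 3 from RARαS77A cells. Control cells were not transfected and received no vector. RARαS77A cells overexpressed a retinoic acid receptor α (RARα) whose serine 77 is replaced by alanine, so that it cannot be phosphorylated there, and the submitters' design text describes the delivery as lentiviral. Delivery of a vector and the mutant receptor therefore cannot be told apart in any difference between the groups. No library came from cells given wild-type RARα, so the replaced serine and a higher RARα level cannot be told apart either. No RAR ligand is named for either group, and no source used here says whether the replicates were separate cultures, so the p-values measure only the spread between these libraries.

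In the cell, the enzyme Dicer cuts a miRNA hairpin into a short duplex, of which 1 strand, the guide, is kept in an Argonaute protein and the other, the passenger, is mostly degraded. The guide pairs with messenger RNAs mainly through its seed, the bases near its 5′ end. The guide of miR-21 is the 5p arm, one of the best known growth-promoting miRNAs (oncomiRs) of breast and other cancers, which represses tumour suppressors such as PDCD4. RARα is a ligand-activated transcription factor, and miR-21 is among the miRNA genes it has been described to regulate.

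MIR21 has a single locus on the plus strand of chromosome 17 in GRCh38, from 59841266 to 59841337, within the gene VMP1, which lies on the same strand from 59707192 to 59842255 (GENCODE 29). There the 72-base hairpin sits inside the exon of a retained-intron transcript of VMP1, VMP1-216, from 59837931 to 59842255. The guide covers positions 8 to 29 of the hairpin, at chr17:59841273-59841294. Among the miRNAs of the table with a reference sequence, 1 other, hsa-miR-590-5p from chr7:74191213-74191234, had the same seed as the guide. These 2 miRNAs are shown because they share bases 2 to 8, and the arms of miR-100 and miR-27b because these hairpins come back below with a like change of arm balance. Sequences are from RefSeq (GRCh38.p14), and capitals mark bases 2 to 8.
hsa-miR-21-5p: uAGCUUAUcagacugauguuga
hsa-miR-590-5p: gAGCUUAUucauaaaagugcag
hsa-miR-100-5p: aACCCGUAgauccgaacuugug
hsa-miR-100-3p: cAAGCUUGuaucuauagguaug
hsa-miR-27b-5p: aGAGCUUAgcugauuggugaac
hsa-miR-27b-3p: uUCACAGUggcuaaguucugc

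The libraries held 9019266 to 11338580 counts, and the deposited TPM is each count scaled by its library total, with no length term. The 5 miRNAs listed as high in MDA-MB-231, miR-21-5p included, summed to 613377 to 658144 TPM in control cells and to 677954 to 708844 in RARαS77A cells. Most of this was miR-21-5p itself, at 446868 to 514007 and 497536 to 515306 TPM. The rest of the list went both ways in the edgeR test below. Log2 fold changes were 1.01 for miR-100-5p, 0.39 for miR-222-3p, -0.79 for miR-125b-5p and -0.32 for miR-221-3p. Those of miR-222-3p and miR-221-3p did not pass the threshold. The 6 miRNAs of epithelial cells (the miR-200 family and miR-205-5p) summed to 114 to 128 and 89.7 to 97.1 TPM. Control replicate 3 stood apart from the other control libraries in its stem cell miRNAs. In it, 8 miRNAs typical of pluripotent stem cells summed to 422 TPM, near the 278 to 288 of the RARαS77A libraries. They summed to 0.185 and 0.0882 TPM in control replicates 1 and 2. By a chi-square over the miRNAs, however, control replicates 1 and 3 differed least (99921). It was 165756 for control replicates 1 and 2 and 143550 for control replicates 2 and 3. The 4 measured muscle miRNAs reached 91.5 TPM in control replicate 1 and at most 5.10 elsewhere, and the endocrine miR-375-3p reached 76.7 in control replicate 2 and at most 5.99 elsewhere. The liver miRNA miR-122-5p was lowest in control replicate 2, at 8.73 TPM against 34.6 to 53.6 elsewhere, and 6 blood cell miRNAs summed to 29.8 to 43.0 in control and 22.1 to 30.7 in RARαS77A libraries. The part of these differences in the results was not tested, and the main results for both arms are also given without each control library.

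The shares of the counts taken by the guide arm overlapped between the groups. In bulk libraries such as these, a change in some of the cells and a change in the RNA of every cell cannot be told apart. miR-21-5p had 5553745, 5066850 and 4278110 counts in control replicates 1 to 3, which were 51.4%, 44.7% and 47.4% of all counts. In RARαS77A replicates 1 to 3 it had 4996150, 5108352 and 5042384 counts, or 51.5%, 49.8% and 50.4%. It was the most abundant miRNA of every library, and in 3 of the 6 libraries it had more counts than the other 1581 miRNAs together. For every count of another miRNA there were 1.06, 0.808 and 0.902 counts of miR-21-5p in control cells and 1.06, 0.990 and 1.01 in RARαS77A cells. The groups overlapped, since control replicate 1 lay among the RARαS77A libraries and control replicates 2 and 3 lay below them. The mean share was 47.8% ± 3.38 in control and 50.5% ± 0.904 in RARαS77A cells (SD, n = 3 each), a difference of 2.71 percentage points (two-sided exact permutation test, p = 0.3, where the smallest possible p is 0.1). The difference was 4.49, 1.13 and 2.50 points without control replicate 1, 2 or 3 (exact permutation p = 0.2, 0.6 and 0.6, where the smallest possible is 0.2). The next most abundant miRNA was miR-100-5p. As a share of all counts except those of miR-100-5p, miR-21-5p was higher by 6.21 points in RARαS77A cells (exact permutation p = 0.1). miR-100-5p itself held 12.6% of the counts in control and 17.1% in RARαS77A cells. Leaving it out therefore shrinks the total more in RARαS77A libraries, which by itself raises the share of miR-21-5p there. Counting error was minor at this depth, and the 95% Wilson interval of control replicate 1 ran from 51.37% to 51.43%.

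The passenger arm was rare in control cells and rarer still in RARαS77A cells. miR-21-3p had 8140, 9259 and 6321 counts in control replicates 1 to 3, which were 0.0753%, 0.0817% and 0.0701% of all counts. It had 1761, 1988 and 2208 counts in RARαS77A replicates 1 to 3, or 0.0182%, 0.0194% and 0.0221%. All 3 RARαS77A libraries lay below all 3 control libraries, by more than counting error: the 95% Wilson interval of the lowest control library began at 0.0684% and that of the highest RARαS77A library ended at 0.0230%. Its rank among the miRNAs went from 55, 57 and 63 in control to 95, 92 and 87 in RARαS77A libraries. The mean share was 0.0757% ± 0.00580 in control and 0.0199% ± 0.00199 in RARαS77A cells (SD, n = 3 each), 3.81-fold lower (two-sided exact permutation test, p = 0.1, the smallest that 3 libraries against 3 allow).

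**Figure D1:**
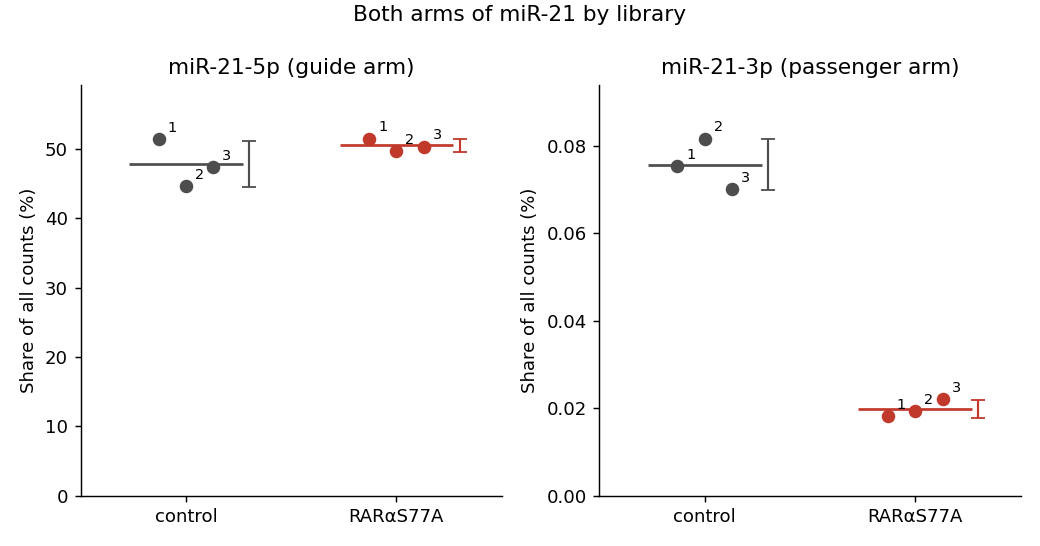
Share of all counts, in percent, taken by miR-21-5p (left) and miR-21-3p (right) in each library, with points numbered by replicate, lines at the group mean and bars of ± SD (n = 3). The guide arm lies between 44.7% and 51.5% with overlapping groups, whereas the passenger arm lies at 0.0701% to 0.0817% in control and 0.0182% to 0.0221% in RARαS77A cells.

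The groups were compared by the quasi-likelihood test of edgeR. Libraries were scaled by TMM, which assumes that most miRNAs do not change, and p-values were adjusted over the 506 miRNAs. On this scale, miR-21-3p reached 653, 629 and 578 CPM (counts scaled to a common library size) in control replicates 1 to 3 and 224, 237 and 266 CPM in RARαS77A replicates 1 to 3. Its log2 fold change was -1.36 (SE 0.10, adjusted p = 0.000215). In this test 21.1% of all miRNAs were lower in RARαS77A cells, and in 27.1% every RARαS77A library lay below every control library by CPM. The fall of miR-21-3p was among the larger ones, with 43 of the 506 miRNAs having a lower log2 fold change. It passed the threshold under all 20 alternative settings, where the log2 fold change lay between -1.93 and -1.14 and the adjusted p was at most 0.00137. It was -1.46 in edgeR without control replicate 3 (adjusted p = 8.48e-06), -1.33 without control replicate 1 (adjusted p = 0.000643) and -1.32 without control replicate 2 (adjusted p = 0.000467). With a batch term that places control replicate 3 with the RARαS77A libraries, it was -1.25. That term leaves control replicate 3 as the only control library on which the group difference rests.

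Whether the guide arm rose depended on how the libraries were scaled. On the TMM scale, miR-21-5p reached 445479, 344482 and 390902 CPM in control replicates 1 to 3 and 635544, 608379 and 607110 CPM in RARαS77A replicates 1 to 3. These groups did not overlap (exact permutation p = 0.1), as was the case for 31% of the miRNAs in the same direction. The log2 fold change was 0.65 (SE 0.22), just past the threshold in edgeR (adjusted p = 0.0482), and 23.3% of all miRNAs were called higher. When the same counts were scaled by the library totals, it was 0.08 (SE 0.18, edgeR adjusted p = 0.716). The limma fit to the deposited TPM gave 0.08 with a 95% interval from -0.15 to 0.32 (adjusted p = 0.513). The call was present in 7 of the 20 alternatives. It was kept without control replicate 1, 2 or 3, with log2 fold changes of 0.75, 0.59 and 0.59. It was lost without RARαS77A replicate 1, 2 or 3. The values were then 0.56, 0.69 and 0.67, with edgeR adjusted p-values of 0.195, 0.0987 and 0.121. With the batch term, which compares control replicate 3 alone with the RARαS77A libraries, the log2 fold change was 0.66. As miRNAs go, this change was moderate, since 129 of the 506 had a higher log2 fold change.

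Because both arms come from 1 hairpin and are counted in 1 library, their ratio does not depend on any scaling. There were 682, 547 and 677 counts of miR-21-5p for each count of miR-21-3p in control replicates 1 to 3. In RARαS77A replicates 1 to 3 there were 2837, 2570 and 2284. The groups lay far apart, with means of 635 ± 76.4 and 2563 ± 277 (SD, n = 3 each), 4.03-fold higher in RARαS77A cells. Expressed as the share of both arms, the passenger made up 0.146%, 0.182% and 0.148% in control replicates and 0.0352%, 0.0389% and 0.0438% in RARαS77A replicates. The log2 ratio of 3p to 5p was lower by 2.01 in RARαS77A cells (difference -2.01, SE 0.15, 95% interval -2.35 to -1.68, limma adjusted p = 6.88e-06 over 117 hairpins). The exact permutation test of the ratio alone gave its smallest possible value (p = 0.1). The difference passed the threshold under all 14 alternatives, which ranged from -2.09 to -1.91. It was -2.07, -1.91 and -2.06 in limma without control replicate 1, 2 or 3 (adjusted p = 1.21e-05, 1.45e-05 and 0.000522). With the batch term, and so against control replicate 3 alone, it was -1.92.

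To see how other hairpins behaved, the arm ratio was tested in 117 hairpins whose rarer arm had a mean count of at least 10. They came from 428 paired hairpins, with both arms in the table under names that differ only in -5p and -3p. Abundant guides whose other arm carries a locus number in its name, such as let-7f-5p, were therefore left out. The rarer arm over all 6 libraries is called the lesser arm and the other the greater arm, and the lesser arm was 3p in 73 and 5p in 44 hairpins. The lesser arm lost ground to the greater arm in 46 hairpins (39.3%) and gained in 15 (12.8%), with a median change of -0.36 on the log2 scale. The 15 hold both miR-423 and miR-3184, which lies on the strand opposite miR-423 and had almost the same counts, so these may be 1 signal. In 51 hairpins (43.6%), miR-21 among them, the ratio in every RARαS77A library lay below that in every control library. Counted by arm, the 3p to 5p ratio was lower in 36 hairpins (30.8%) and higher in 25 (21.4%) by the limma test. In edgeR, the lesser arms themselves were lower in 36 and higher in 17 of the 117 hairpins, with a median log2 fold change of -0.18, whereas the greater arms were lower in 22 and higher in 37, with a median of 0.23. miR-21 thus moved in the commoner direction and had the seventh lowest change of the 117. With the batch term, whose group difference rests on a single control library, fewer hairpins were called in either direction for the lesser arm.

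Among the 10 paired hairpins with the most counts, limma called the lesser arm lower relative to the greater arm in 7, miR-21 included, and higher in 0. The ratios of miR-30a and let-7g rose without a call, and miR-146a was not tested. Of all 117 hairpins, 39.3% were called lower and 12.8% higher. miR-100-5p, the next most abundant guide, is another miRNA that is high in MDA-MB-231. Its passenger had 132, 107 and 94 counts in control and 51, 32 and 34 counts in RARαS77A replicates, and its share of both arms went from 0.00871% ± 0.00225 to 0.00229% ± 0.000579 (SD, n = 3 each). The log2 ratio differed by -1.91 (SE 0.28, limma adjusted p = 0.000443), close to the value of miR-21. In edgeR with TMM, the guide miR-100-5p rose (1.01, adjusted p = 0.00308) and its passenger fell (-0.88, adjusted p = 0.0293). In miR-21 the passenger moved more than the guide, by -1.36 against 0.65. In miR-27b the guide is the 3p arm, and the passenger, miR-27b-5p, went from 1.00% ± 0.183 to 0.244% ± 0.0348 of both arms (SD, n = 3 each), a log2 difference of -2.04 (SE 0.17, limma adjusted p = 1.79e-05). In edgeR miR-27b-5p changed by -1.98 (adjusted p = 0.000334), while the log2 value of miR-27b-3p was 0.09 (adjusted p = 0.498).

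Other abundant hairpins also differed in which arm moved, or did not pass the threshold. In miR-151a, where the 3p arm is the greater, the 5p share went from 2.96% ± 0.298 to 0.539% ± 0.0749 (SD, n = 3 each). Here the greater arm rose (edgeR log2 fold change 2.34, adjusted p = 4.33e-05) and the lesser arm did not pass the threshold (-0.16, adjusted p = 0.307). The lesser arm also lost ground in let-7i (-1.20), let-7a (-0.90) and miR-30d (-0.65), with limma adjusted p-values of 0.00203, 0.000685 and 0.00493. The call for miR-30d was lost in 1 of its 14 alternatives, the batch term, and let-7a-5p is made from several genes, so that its arms cannot be assigned to 1 hairpin. In miR-30a, by contrast, the 3p arm made up 3.37% ± 0.543 of both arms in control and 3.79% ± 0.175 in RARαS77A cells (SD, n = 3 each) and the groups overlapped, with a log2 difference of 0.19 (SE 0.16, limma adjusted p = 0.377). The difference in let-7g was 0.48 (SE 0.39, limma adjusted p = 0.357) with 6 to 15 counts of its 3p arm per library. The hairpin of miR-146a was not tested, since its 3p arm had 2 counts in control replicate 1 and 0 elsewhere.

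The dominance of miR-21-5p left 48.6%, 55.3% and 52.6% of the counts for all other miRNAs in control replicates 1 to 3 and 48.5%, 50.2% and 49.6% in RARαS77A replicates 1 to 3. A miRNA that kept the same share of these remaining counts would differ by up to 0.19 on the log2 TPM scale between the libraries with the most and the least room. Between the groups, this effect was -0.08 on the log2 scale. Taking miR-21-5p out of the library totals therefore moved log2 fold changes up by 0.07, and had a small effect on the calls. Among the other 505 tested miRNAs, edgeR called 51 higher and 213 lower with library totals and 69 higher and 206 lower with totals that left out miR-21-5p, and 257 of the 264 calls with library totals were shared in direction. As shares of all 506 tested, these are 10.1% higher and 42.1% lower with library totals, and 13.6% and 40.7% with totals that left out miR-21-5p.

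The larger shift came from the next miRNAs and from the scaling method. When miR-100-5p was left out as well, the counts left were 39.5% ± 2.37 in control and 32.4% ± 1.82 in RARαS77A cells (SD, n = 3 each), a log2 difference of -0.29, and the groups no longer overlapped. The difference was -0.34 without the 5 most abundant miRNAs and -0.51 without the 20 most abundant. miR-100-5p itself held 12.6% ± 2.31 of the counts in control and 17.1% ± 0.975 in RARαS77A cells, a gain of 4.41 percentage points against the 2.71 of miR-21-5p. There were 4.40, 2.93 and 4.32 counts of miR-21-5p per count of miR-100-5p in control replicates and 2.89, 3.12 and 2.89 in RARαS77A replicates, where control replicate 2 lay within the RARαS77A range.

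**Figure D2:**
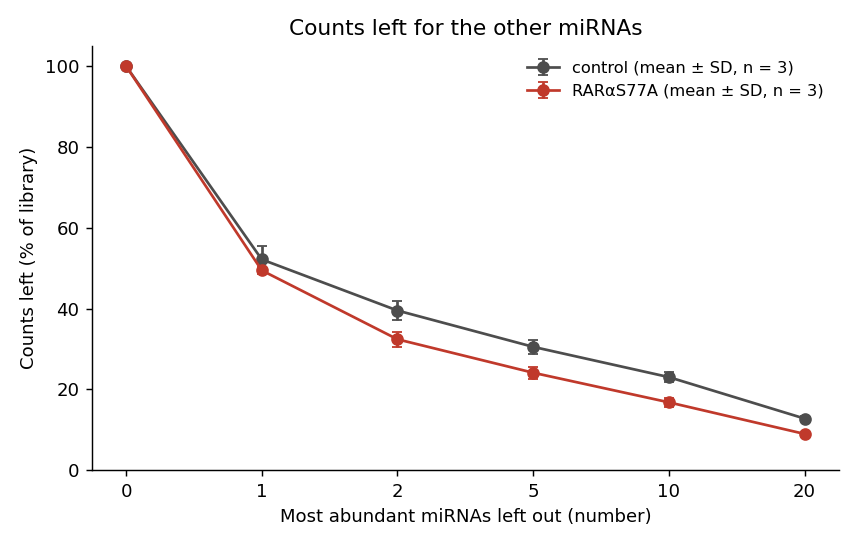
Percentage of a library's counts left (y axis) after leaving out the 0, 1, 2, 5, 10 or 20 most abundant miRNAs (x axis, unevenly spaced numbers), as the mean ± SD of 3 libraries per group. The groups are 52.2% and 49.5% after leaving out miR-21-5p and separate from the second miRNA on, at 39.5% in control and 32.4% in RARαS77A cells.

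Compared with library totals, TMM moved log2 fold changes up by 0.57. In each of the 5 comparisons with its reference library, control replicate 3, TMM trimmed the 24 or 25 most abundant miRNAs, miR-21-5p among them. It set its factors on 182 to 186 miRNAs of middle abundance, so the guide arm was not among the miRNAs averaged. TMM computed on a table without miR-21-5p gave a shift of 0.51. The upper quartile method gave the largest shift of the 7 alternatives to library totals, 0.79. The median log2 fold change of the other 505 miRNAs was -0.51 with library totals, -0.44 with totals that left out miR-21-5p, 0.06 with TMM, -0.01 with TMM computed without miR-21-5p and 0.27 with the upper quartile. The split of the calls moved with it. edgeR called 117 of the other miRNAs higher and 107 lower with TMM, 113 and 124 with TMM computed without miR-21-5p (22.3% and 24.5% of all 506 tested), and 140 and 74 with the upper quartile. Of the 224 calls with TMM, 220 were shared with TMM computed without miR-21-5p, 176 with totals that left out miR-21-5p and 158 with library totals.

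A scaling factor shifts all miRNAs of a library alike, so the distance of an arm from the other miRNAs hardly depends on it. With TMM, the log2 fold change of miR-21-5p less the median of the others was 0.59, and that of miR-21-3p was -1.42. The guide arm was past the threshold with TMM and the upper quartile (0.87, edgeR adjusted p = 0.0119) and not with the other 6 scalings. TMM computed without it gave 0.58 (SE 0.23, edgeR adjusted p = 0.0716), DESeq2's size factors in edgeR 0.60 (adjusted p = 0.0696) and library totals without it 0.15 (SE 0.23, adjusted p = 0.604).

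The calls of other abundant miRNAs also differed between TMM and library totals, and none of the 5 was called in opposite directions. Among all tested miRNAs but miR-21-5p, TMM and library totals called 0 in opposite directions, and the upper quartile and library totals 3. let-7f-5p and miR-30a-5p were called higher with TMM (0.54 and 0.56, edgeR adjusted p = 0.0326 and 0.00696) and were not called with library totals (-0.04 and -0.01, adjusted p = 0.859 and 0.924). Their shares of the counts were 2.80% ± 0.512 and 2.54% ± 0.175 in control and 2.73% ± 0.365 and 2.52% ± 0.0603 in RARαS77A cells (SD, n = 3 each). let-7i-5p was not called with TMM (0.30, edgeR adjusted p = 0.0728) and had -0.27 with library totals (adjusted p = 0.071). let-7g-5p, a member of the same growth-restraining let-7 family, was called lower with library totals (-0.51, edgeR adjusted p = 0.0118) and had 0.07 with TMM (adjusted p = 0.683). miR-100-5p was higher with TMM (1.01, edgeR adjusted p = 0.00308) and had 0.43 with library totals (adjusted p = 0.0715).

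hsa-miR-590-5p, which carries the seed of miR-21-5p, had 10, 3 and 3 counts in control and 3, 2 and 3 counts in RARαS77A replicates and did not pass the filter. Counts with this seed thus came almost wholly from miR-21-5p.

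The miRNAs whose TMM-scaled log2 CPM ran most like each arm over the 6 libraries were picked by Pearson's r among the 312 tested miRNAs that averaged 50 or more counts. Since the 6 points fall into 2 groups, such an r is largely set by the group difference and is given as a description. For miR-21-5p they were miR-24-2-5p (r = 0.989), miR-7-5p (0.984), miR-3529-3p (0.983), miR-24-1-5p (0.980) and miR-30a-5p (0.980). miR-3529 is read from the strand opposite miR-7 and had almost the same counts, and the handling of strand is not given, so these 2 may be 1 signal. Of the 5, miR-24-1-5p did not pass the threshold (0.31, edgeR adjusted p = 0.13). For miR-21-3p they were miR-29b-1-5p (r = 0.998), miR-4521 (0.990), miR-27b-5p (0.988), miR-181a-3p (0.988) and miR-374b-5p (0.987). These 5 fell, with log2 fold changes of -1.93, -3.27, -1.98, -1.39 and -1.79 and edgeR adjusted p-values between 0.000237 and 0.000384. miR-27b-5p is the passenger shown above. The arms of miR-21 themselves ran in opposite directions (r = -0.94 over the same 6 libraries).

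Other miRNAs usually named beside miR-21 as promoting breast cancer growth or spread did not move as a block. Of 18 listed, 17 were in the table and 14 were tested, of which edgeR with TMM called 3 higher and 6 lower, against 23.3% and 21.1% of all miRNAs tested. Their median log2 fold change was -0.41, beside 0.06 for all 506. The higher ones were miR-9-5p (1.02), miR-96-5p (0.65) and miR-182-5p (0.37), of which miR-182-5p had -0.20 with library totals. Among the lower ones were miR-17-5p (-1.28), miR-20a-5p (-1.03), miR-19b-3p (-1.83) and miR-92a-3p (-0.61), members of the growth-promoting miR-17-92 cluster, of which miR-19b-3p and miR-92a-3p also come from a related cluster. miR-210-3p, a miRNA induced by hypoxia, and miR-181a-5p fell by 1.46 and 0.44 on the log2 scale. The other 5 (miR-10b-5p, miR-221-3p, miR-222-3p, miR-18a-5p and miR-19a-3p) did not pass the threshold. With library totals, 0 of the list were called higher and 9 lower, where 10.1% and 42.1% of all miRNAs tested were called. miR-155-5p, miR-373-3p and miR-105-5p had at most 5, 19 and 1 counts in any library and were not tested.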

How the data were processed

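Small RNA libraries of 3 control and 3 RARαS77A replicates of MDA-MB-231 cells were compared. The authors deposited 1 table with the count of reads for each miRNA and library, as whole numbers without normalization. The deposited TPM is each count scaled by its library total (CPM), with a largest difference of 4.74e-05, and has no length term. The submitters' processing notes name Bowtie. Its settings, reference and read filters, and how strand or repeated matches were treated, are not given in the sources used.

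Counts were tested with edgeR 4.0.16 in R 4.3.3 (TMM, filterByExpr with a minimum count of 10, glmQLFit and glmQLFTest, Benjamini-Hochberg adjusted p under 0.05). Standard errors are the absolute log2 fold change over the root of F. Arm ratios were tested with limma 3.58.1 on log2((3p count + 0.5)/(5p count + 0.5)), with the arms matched by name and a variance trend on the lesser arm. Shares and the ratio of miR-21 were also compared with two-sided exact permutation tests in scipy 1.17.1, whose p cannot go below 0.1. Alternatives were 7 other scalings, no filter, DESeq2 1.42.0, limma-voom, limma on log2(TPM + 1 or + 10), a replicate block, a batch term and each library left out. The batch term leaves control replicates 1 and 2 as the only libraries of their batch. Its group difference therefore compares control replicate 3 alone with the RARαS77A libraries. No sample title names such a batch. Scripts were tested on simulated data, where miR-21-5p was held unchanged and other changes were drawn alike in both directions. That test does not cover changes that lean to 1 direction.

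Where 0 reads were counted, up to 3 remain possible, or 0.265 to 0.333 CPM of all counts and 0.478 to 0.638 CPM of the counts without miR-21-5p. Intervals and floors cover counting error only.

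The miRNAs named are both arms of miR-21, those sharing the seed of the guide and the 5 most abundant others. They also include the 10 paired hairpins with the most counts, the 5 miRNAs most like each arm and a list of oncomiRs. The arms, lists and tests were chosen with earlier results of these data known.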

Additional observations from a re-analysis of the deposited data

How the results depend on the processing

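The fall of miR-21-3p and the change of the arm ratio kept direction and call under all alternatives run, as did both share differences their direction. The log2 fold change of miR-21-5p stayed positive but lost its call in 13 of 20 alternatives. These were DESeq2's size factors (0.60), library totals (0.079), totals without miR-21-5p (0.15), totals without the 5 most abundant miRNAs (0.42), TMM without miR-21-5p (0.58), TMM without precision weights (0.63), limma on log2(TPM + 1) and log2(TPM + 10) (0.082 each), the batch term (0.66), the replicate block (0.66) and each RARαS77A replicate left out. Over all single libraries left out it ranged from 0.56 to 0.75. It was 0.46 without a filter and 0.55 in DESeq2, both called.

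The number of miRNAs called higher, 118, became 51 with library totals, 69 with totals without miR-21-5p, 55 and 59 with limma on log2(TPM + 1) and log2(TPM + 10), and 76 with the batch term. The number called lower, 107, became 213, 206, 221, 218 and 55 under the same settings and 162 without a filter. Hairpins whose 3p to 5p ratio was called higher or lower went from 25 and 36 to 15 and 16 with the batch term. With the batch term, the group difference rests on a single control library. Fewer calls under that term therefore cannot show whether a batch was present. The cause of the changes under the other settings was not tested.

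Directions reversed for let-7i-5p with limma on TPM (-0.27 with either pseudocount), for let-7f-5p with library totals (-0.037) and limma on TPM (-0.031 with either), and for miR-30a-5p (-0.012 and -0.0097). let-7g-5p reversed with library totals (-0.51), totals without miR-21-5p (-0.43) and limma on TPM (-0.51 with either), and miR-182-5p in the same settings (-0.20, -0.13, -0.20 and -0.20). Without a call on either side, let-7i-5p was also negative with library totals (-0.27) and totals without miR-21-5p (-0.20), as were miR-222-3p and miR-24-1-5p with these and with limma on TPM, down to -0.19 and -0.26. let-7g-5p was also negative without the 5 most abundant miRNAs (-0.17), without a filter (-0.13), with the batch term (-0.10), in DESeq2 (-0.034) and with TMM without miR-21-5p (-0.0051). With library totals, log2 fold changes lie 0.57 below those with TMM, more than the TMM value of each of these miRNAs. Beyond this shift, the cause of these sign changes was not tested.

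Deviations of same-numbered libraries correlated at 0.03, 0.10 and 0.01 over 506 miRNAs. Control replicates 1 and 2 ran best with their same-numbered libraries, and control replicate 3 with RARαS77A replicate 1 (0.07). Values this small cannot decide whether replicate numbers pair the libraries. With the replicate block, miR-21-3p had -1.36 and the arm ratio -2.01, both called, and 107 miRNAs were higher and 94 lower. The exact tests could not fall under 0.1, or under 0.2 with a library left out.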
